A study of Mus musculus with 3 samples.

Results

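The cytosolic ribosomal protein genes encode the proteins that, with ribosomal RNA, build the large (Rpl) and small (Rps) subunits of the cytosolic ribosome. The family was taken as every gene whose symbol starts with Rpl or Rps and a number, with Rpsa, Rplp0, Rplp1 and Rplp2, leaving out the Rps6k kinases and symbols marked as pseudogenes. That gave 85 of the 19039 genes listed in the 3 expression matrices, and all 85 stood in every matrix. They comprise 51 Rpl and 34 Rps symbols. Of these, 77 are the standard genes and 8 are paralogs or a binding protein gene: Rpl3l, Rpl7l1, Rpl22l1, Rpl36al, Rpl39l, Rps27l, Rps27rt and Rps19bp1. Rps19bp1 matches the naming rule but encodes a protein that binds Rps19, not a ribosomal protein.

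The mice were 2 to 3 month old C57Bl/6 females. Those behind the samples labelled depleted carried Cx3cr1CreERT and ROSA-iDTR, and those behind the samples labelled control carried Cx3cr1CreERT alone. All of them received tamoxifen, then a pause of a month, then diphtheria toxin. Cx3cr1 drives the Cre in both genotypes and is active in microglia and in other myeloid cells. Brains were either naive or held metastases (the metastatic brain below) seeded by carotid injection of E0771 breast cancer cells, and blood came from the metastasis-bearing mice. A hemisphere of brain was enriched for immune cells on Percoll gradients, and remnant microglia stay in depleted samples. The 8 samples were tagged with hashtag antibodies and read as 1 pooled 10x 3' library. The naive brain and the blood had 1 sample per label in the tables used here, and cells of the metastatic brain were not assigned to a label.

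Ribosomal protein mRNAs are among the most abundant in most cells. Many of them start with a run of pyrimidines, the 5' terminal oligopyrimidine (TOP) motif, through which mTOR signalling acts on their translation. Resting lymphocytes are known for a large ribosomal protein share of their mRNA, and mature neutrophils for little RNA and few ribosomes.

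The naive brain held 2653 cells, the metastatic brain 5933 and the blood 2924. The median cell had 10119.5 and 8621 raw UMIs in the naive brain samples labelled depleted and control, and 5885 and 4571 in the blood samples. Single cells of the naive brain held between 600 and 512965. A droplet barcode stood in another matrix as well for 29.1% of the naive brain cells, 17.1% of those of the metastatic brain and 28.5% of the blood cells, and 84 barcodes stood in all 3. Clusters are called "-like" because they were named from marker genes alone. Cells named tumour-like stood in the naive brain (111 cells) and the blood (180 cells), where 72.1% and 83.9% of their droplets were shared. Microglia-like cells also stood in the blood (468 cells, 82.7% shared). The naive brain sample labelled depleted held 686 microglia-like cells and the control-label sample 134. Cx3cr1 reached 10.0 CP10k (corrected UMIs per 10000) in those cells of the depleted-label sample, against 1.72 CP10k in those of the control-label sample. Cx3cr1 was also higher under the depleted label in every other named class with both labels. In blood nonclassical monocyte-like cells it was at 3.64 CP10k (depleted label) and 0.286 CP10k (control label). This gap is thus not particular to microglia-like cells and does not measure their depletion. The microglia-like counts go against the labels. Nonclassical monocyte-like cells of the naive brain had the opposite order (18 and 148 cells), but those of the blood did not (386 and 95). The samples are therefore named by their label throughout and no direction below is tied to depletion.

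Stretches of 30 bases near annotated start sites are shown here for the members that the results turn on. Capitals mark the longest pyrimidine run inside the bounds searched, 30 bases before to 50 after the start. A run can go on past those bounds, as that of Rps24 does upstream. Several stretches do not hold the start site itself. Counted from the start, the run begins at 41 in Rps2, 37 in Rpl39, 29 in Rpl37, 28 in Rpl36a and 24 in Rpl37a. In Rpl7l1 and in the Rps24 stretch printed here it begins at -30. Another annotated start of Rps24, not printed, has a run of 12 bases that begins at 39. Capitals thus mark a run near the start, which need not be a TOP motif. The stretches come from RefSeq on GRCm38.p6 and are written 5' to 3' on the gene's strand.
Rpl13 (chr8:123102326-123102355, plus strand): tgacgtcaCTTCCCTTTCgcctgattttga
Rps24 (chr14:24490723-24490752, plus strand): TTCCTCCTCTCCagctccggcgccgtagcc
Rps9 (chr7:3704027-3704056, plus strand): ccgccttgTCTCTCTTTgtctcgggcctga
Rps2 (chr17:24720083-24720112, plus strand): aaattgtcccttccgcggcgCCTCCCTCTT
Rpl36a (chrX:134585673-134585702, plus strand): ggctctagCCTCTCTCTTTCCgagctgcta
Rpl37 (chr15:5116633-5116662, plus strand): cgggggtgCTTTCTCTTCCggtctctttgg
Rpl37a (chr1:72711275-72711304, plus strand): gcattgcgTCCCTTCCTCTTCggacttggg
Rpl39 (chrX:37085173-37085202, minus strand): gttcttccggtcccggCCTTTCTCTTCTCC
Rps27 (chr3:90213629-90213658, minus strand): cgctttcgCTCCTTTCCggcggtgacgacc
Rps27l (chr9:66946056-66946085, plus strand): cgcctccaCTCCTCTCCactcctccccgcc
Rpl31 (chr1:39367825-39367854, plus strand): tcgccacaCCTCTTCCTCCTCgcctccccg
Rpl7l1 (chr17:46782657-46782686, minus strand): TCTCTaccccgcccggtgaggctgcgcaag
Rps19bp1 (chr15:80264286-80264315, minus strand): ggaagtagCTCgccgcgtgtgggcggggct

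RefSeq gave 77 start-site windows for 65 of the members. A run of at least 8 pyrimidines, between 30 bases before and 50 after the start, stood in 53 of the 77 windows (68.8%), against 29.0% of all 32851 windows of the same length. The longest run had a median of 10 bases in member windows and 6 in all windows. The longest runs of Rpl7l1 and Rps19bp1 were 5 and 3 bases. Within the whole windows of 300 bases, searched on both strands, CTTTCC stood in 50.6% of member windows and 26.6% of all windows. CTTCCGG stood in 35.1% of member windows and 8.86% of all windows. A match describes the letters and no more.

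Rps27 and Rps27rt share an identical stretch of 38 bases around their start sites, of which the capitals show the first part.
Rps27 (chr3:90213623-90213652, minus strand): cgctcCTTTCCGGCGGTGACGACCTCCCTA
Rps27rt (chr9:114982715-114982744, minus strand): ccttgCTTTCCGGCGGTGACGACCTCCCTA
Rps27rt lies at chr9:114982366-114982739 and overlaps the annotated gene Osbpl10. Reads of such near-identical copies cannot always be placed, so values of Rps27rt, and to a lesser degree of Rps27, are uncertain.

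The family took 19.0% of all corrected UMIs in the naive brain, 19.2% in the metastatic brain and 15.6% in the blood. The matrices were corrected separately, so these levels are set side by side only. The size of that limit can be read from droplets that 2 matrices share. Over 339 droplets the family's share was 15.9% as corrected in the naive brain matrix and 14.9% as corrected in the blood matrix, with a median difference of 0.96 percentage points.

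The cluster with the highest share was lymphoid, and the one with the lowest was neutrophil-like, in each matrix. The authors' clusters were made with genes that may include the family, so the following shares describe the clusters and test nothing. In the naive brain the share was 33.2% in T cell-like cells (499 cells, quartiles 28.9% and 37.9%), 27.2% in NK cell-like cells and 24.1% in tumour-like cells. It was 17.9% in monocyte-like, 16.9% in nonclassical monocyte-like and 14.4% in microglia-like cells. Endothelial-like cells had 13.2%, mural-like cells 12.9% and neutrophil-like cells 9.47%. The share of T cell-like cells was thus 1.81 higher than that of neutrophil-like cells on the log2 scale.

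In the blood, B cell-like cells had 29.3%, T cell-like cells 26.6% and tumour-like cells 23.1%. Classical monocyte-like cells had 19.8% and nonclassical monocyte-like cells 16.4%. Microglia-like cells had 12.7% and neutrophil-like cells 6.46% (966 cells). T cell-like cells stood 2.04 above neutrophil-like cells on the log2 scale. The T cell-like cells of the blood were spread widely, with a first quartile of 19.0%, and 49.0% of their droplets were shared with another matrix. Their 9 NK cell markers summed to 30.8 and 32.8 CP10k in the depleted- and control-label samples, beside 51.4 and 53.3 CP10k for the 11 T cell markers. In T cell-like cells of the naive brain the NK cell markers summed to 11.5 and 12.4 CP10k. No blood cluster was named NK cell-like, so T and NK cells are not told apart there.

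Clusters of the metastatic brain were made without ribosomal protein genes, and the order was alike there. NK cell-like cells fell in 2 clusters with 34.2% and 28.0%, and T cell-like cells in 2 clusters with 33.9% and 18.3%. In the cluster with 18.3%, 55.9% of the droplets were shared. Tumour-like cells had 25.9%, B cell-like cells 24.8%, dendritic-like cells 20.003% and nonclassical monocyte-like cells 19.1%. Monocyte- and macrophage-like cells fell in clusters with 18.2% and 12.04%. Microglia-like cells had 14.8% and neutrophil-like cells 7.69%.

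**Figure D1:**
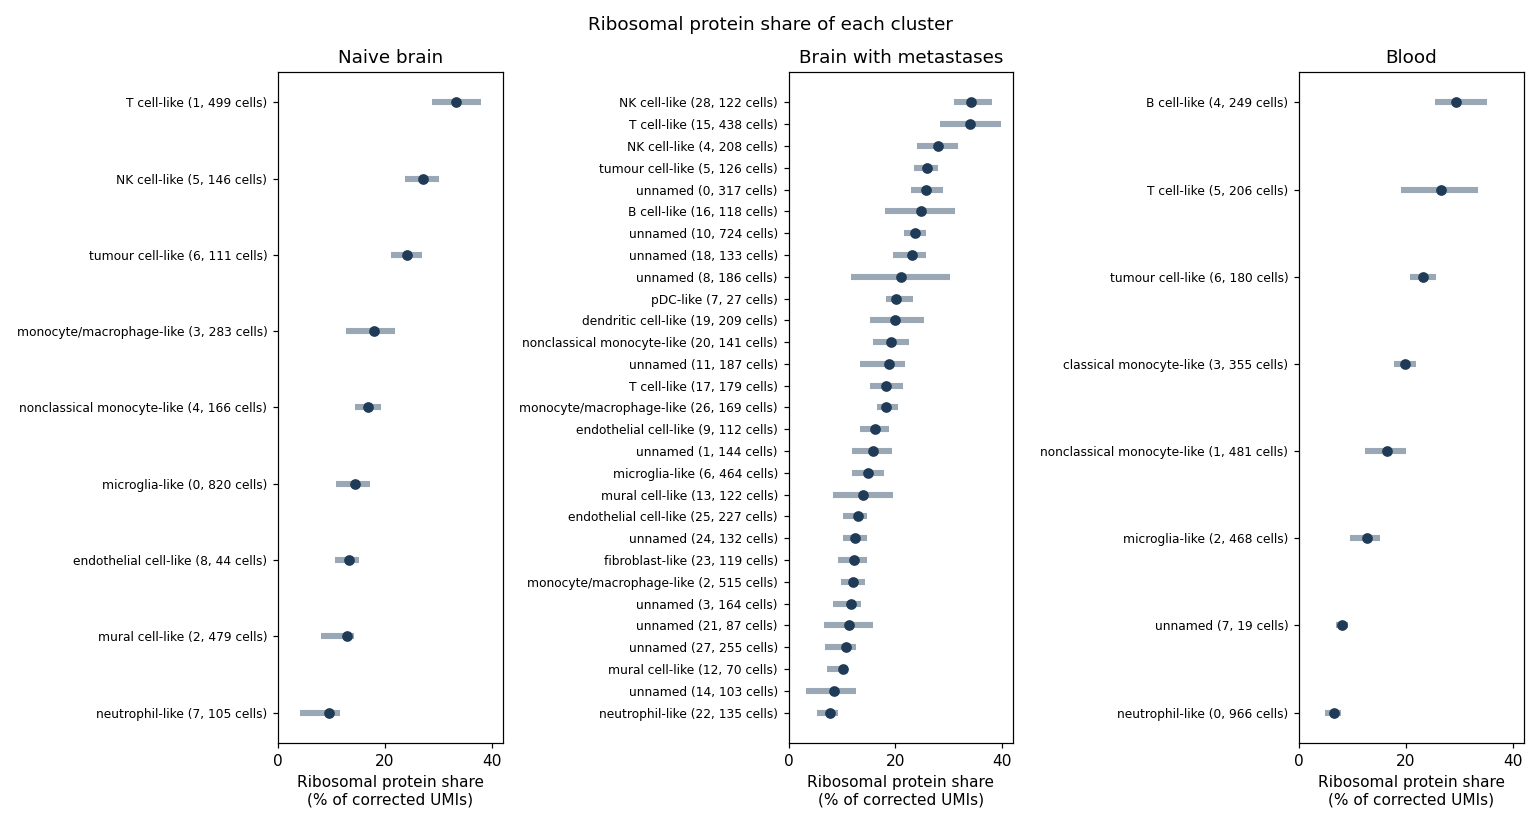
Ribosomal protein share of corrected UMIs (x axis, percent) for each cluster of the 3 matrices (y axis, cluster number and cells in brackets). Points are shares of summed UMIs and bars the quartiles over cells; neutrophil-like cells are lowest in each matrix, at 9.47%, 7.69% and 6.46%.

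Antibody staining, which did not use RNA, gave the same ends in the naive brain. CD8+ cells had 32.9% (154 cells), NK1.1+ cells 27.6%, CNS-native myeloid cells 14.4% and Ly6C+Ly6G+ cells 11.4%. In the blood, Ly6C+Ly6G+ cells had 6.96%, the lowest gate, and CD8+ cells 25.3%, the highest. Blood lymphoid gates were less alike, with 20.6% in CD4+, 14.9% in NK1.1+ and 13.9% in other CD3+ cells. Of their droplets, 50.7%, 85.9% and 64.6% were shared with another matrix, as were 65.0% of the CD8+ ones. The median NK1.1+ and other CD3+ cell had 19228.5 and 11716.5 raw UMIs, against 7573 in T cell-like cells of the blood. The part of this in the low shares was not tested.

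Gene lists tied to the ribosome differed in how they lay beside the family. The summed level of 16 translation factors, most of them with TOP mRNAs, was 2.86% of corrected UMIs in T cell-like cells of the naive brain, 1.43% in microglia-like and 0.95% in neutrophil-like cells. In the blood it was 2.47% in T cell-like and 0.646% in neutrophil-like cells. Blood B cell-like cells, with the highest family share, had 2.19%, near the 2.17% of classical monocyte-like cells and below the 2.94% of tumour-like cells. Ribosome biogenesis genes summed to 0.721% in tumour-like and 0.204% in T cell-like cells of the naive brain. Mitochondrial ribosomal protein genes summed to 1.04% and 0.471% in the same clusters, so neither list had the family's order.

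Within the family the members kept their proportions for the most part. In 3' libraries a molecule is counted once whatever its length, so levels of different members can be set side by side, apart from members with near-identical copies. These levels are of depth-corrected UMIs and not of captured molecules. After correction 49.9% of the naive brain cells and 49.8% of the blood cells had more UMIs than before. Rpl13, a large subunit protein, was the most abundant by its mean share of the family over clusters, with a mean level of 56.1 CP10k over the naive brain clusters. Rps24, a small subunit protein, followed with 52.6 CP10k. The mean of Rpl13 includes 126.5 CP10k in tumour-like cells. In the naive brain Rps24 ranked above Rpl13 in T cell-, NK cell- and monocyte-like cells, and Rpl13 above Rps24 in tumour- and vascular-like cells. Rpl3l and Rpl39l, known for expression in muscle and in testis, did not reach 0.5 CP10k in any cluster. The steadiest member of the naive brain was Rpl23, a large subunit protein, whose log2 share within the family had an SD of 0.047 over 9 clusters. Rpl19 and Rpl22 followed with 0.086 and 0.090. Among the members with the widest spread were Rpl7l1 (0.80), Rps19bp1 (0.78), Rps27rt (0.66) and Rps27l (0.63).

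Members are described below as departing where their log2 share of the family lay over 1 from its median over the clusters of that matrix. Rps9, a small subunit protein, departed in the neutrophil-like cells of all 3 matrices, by 1.07 in the naive brain, 1.64 in the metastatic brain and 1.70 in the blood. In the same order, 65.7%, 43.0% and 7.66% of the neutrophil-like droplets were shared with another matrix, so the matrices are not independent. Rps9 was the first of the family by level in these neutrophil-like cells. In the blood it reached 45.2 CP10k in the depleted-label sample and 39.5 CP10k in the control-label sample, and took 6.56% and 6.45% of the family. In the naive brain it reached 35.8 and 27.5 CP10k in the depleted- and control-label samples, or 2.98% and 4.25% of the family. The level of Rps9 itself was not highest in neutrophil-like cells. In T cell-like cells of the naive brain it was 51.3 CP10k in the depleted-label sample and 49.6 CP10k in the control-label sample, 1.54% of the family in both.

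Over single blood cells its median was 39.4 CP10k in neutrophil-like cells and 37.0 CP10k in all other cells. Classical monocyte-like cells of the blood shared the first place of Rps9, at 57.6 and 54.1 CP10k in the depleted- and control-label samples, where it took 2.79% and 2.87% of the family. By the Ly6C+Ly6G+ gate in place of the cluster, a choice made after the data were seen, its departure was 0.59 in the naive brain and 1.53 for the blood. Rps9 lies at chr7:3703954-3706897, next to Pirb, a myeloid inhibitory receptor gene, at chr7:3712505-3720382. Pirb was at 6.10 and 7.27 CP10k in the blood neutrophil-like cells of the depleted- and control-label samples, and at 0.83 and 1.01 CP10k in the T cell-like cells.

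Rpl37, Rps19 and Rps20 departed in neutrophil-like cells of the blood and of no other matrix. Rpl37, a large subunit protein, departed by 1.33 there and was at 21.1 CP10k in the depleted-label sample and 18.0 CP10k in the control-label sample. Over single blood cells its median level was lower in neutrophil-like cells (17.8 CP10k) than in all other cells (22.5 CP10k). Rps19 and Rps20, both of the small subunit, departed by -1.03 and -1.04. Rps19 was at 4.61 and 4.07 CP10k, and Rps20 at 5.77 and 4.05 CP10k, in the depleted- and control-label samples. Rps27 departed by 1.03 in the neutrophil-like cells of the metastatic brain, with 18.0 CP10k.

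Among named clusters, tumour-like cells had the most departing members in each matrix. In the metastatic brain they had 4 high and 3 low, against 4 and 5 in an unnamed cluster of 724 cells. Rpl13, Rps2, Rpl36a and Rps19bp1 departed in that unnamed cluster by 1.29, 1.13, 1.04 and 1.70, and Rpl39 and Rpl37a by -1.42 and -1.08. The pattern is thus not particular to the cluster named tumour-like. Rps2, a small subunit protein, departed by 1.32 in the naive brain, 1.08 in the metastatic brain and 1.33 in the blood. Rpl36a, a large subunit protein, departed by 1.28, 1.07 and 1.475 in the same order. Rps19bp1 departed by 1.75, 1.58 and 1.85. It reached 2.13, 2.05 and 2.18 CP10k there, with a median share of the family over clusters of 0.020%, 0.022% and 0.019%. Its median level over clusters was under the 0.5 CP10k limit, so it was measured only in clusters where it was high. These departures of Rps19bp1 thus rest on a baseline near the floor. Without it, tumour-like cells still had the most departing members among named clusters. Rpl13 departed by 1.02 in the naive brain and 1.19 in the metastatic brain, and reached 0.99 in the blood. Its level in the tumour-like cells of the naive brain was 128.3 CP10k in the depleted-label sample and 119.4 CP10k in the control-label sample. Microglia-like cells there had 37.2 and 31.2 CP10k.

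Rpl39 and Rpl37a, both of the large subunit, were low in tumour-like cells. Rpl39 departed by -1.44 in the naive brain, -1.43 in the metastatic brain and -1.34 in the blood. Rpl37a departed by -1.18, -1.001 and -1.10. Rps27 departed by -1.40 in the naive brain and -1.34 for the blood. Its copy Rps27rt departed by -1.67 and -2.29, at 0.304 and 0.206 CP10k, under the 0.5 CP10k limit. In the metastatic brain neither departed in tumour-like cells, but in the unnamed cluster of 724 cells they departed by -1.03 and -1.13. In the tumour-like cells of the naive brain Rpl39 was at 10.7 CP10k in the depleted-label sample and 11.4 CP10k in the control-label sample, against 48.4 and 48.0 CP10k in T cell-like cells. The tumour-like cells of the naive brain had a median of 157758 raw UMIs, far above every other cluster there, and the part of depth in these departures was not tested. Most droplets of tumour-like cells in the naive brain and blood matrices were shared with another matrix, against 7.94% in the metastatic brain, so the matrices are not independent of each other.

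Of the paralogs, Rps27l and Rpl7l1 departed by low values in lymphoid clusters. Rps27l, a paralog of Rps27, departed by -1.61 in T cell-like cells of the naive brain, -1.67 in a T cell-like cluster of the metastatic brain and -1.479 in those of the blood. In the other T cell-like cluster of the metastatic brain (179 cells) it stood at -0.40 and did not depart. It was at 1.69 and 1.34 CP10k in the T cell-like cells of the depleted- and control-label naive brain samples, and at 2.05 and 2.12 CP10k in the microglia-like cells. It also departed in B cell-like cells of the blood, by -1.62. Rpl7l1, a paralog of Rpl7, departed by -1.39 in T cell-like cells of the naive brain, at levels near the 0.5 CP10k limit. Rpl22l1, a paralog of Rpl22, departed by low values in tumour-like cells, by -1.19 in the naive brain and -1.81 in the metastatic brain. It departed by 1.17 in fibroblast-like cells of the metastatic brain, with 6.87 CP10k.

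In 27 plasmacytoid dendritic-like cells of the metastatic brain, Rpl31 of the large subunit departed by 1.55. Its median over these cells was 24.96 CP10k (quartiles 19.8 and 33.2), against 6.84 CP10k over all other cells (quartiles 4.24 and 10.0). It was the 1 member that departed there. Rpl31 overlaps the annotated gene Tbc1d8.

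**Figure D2:**
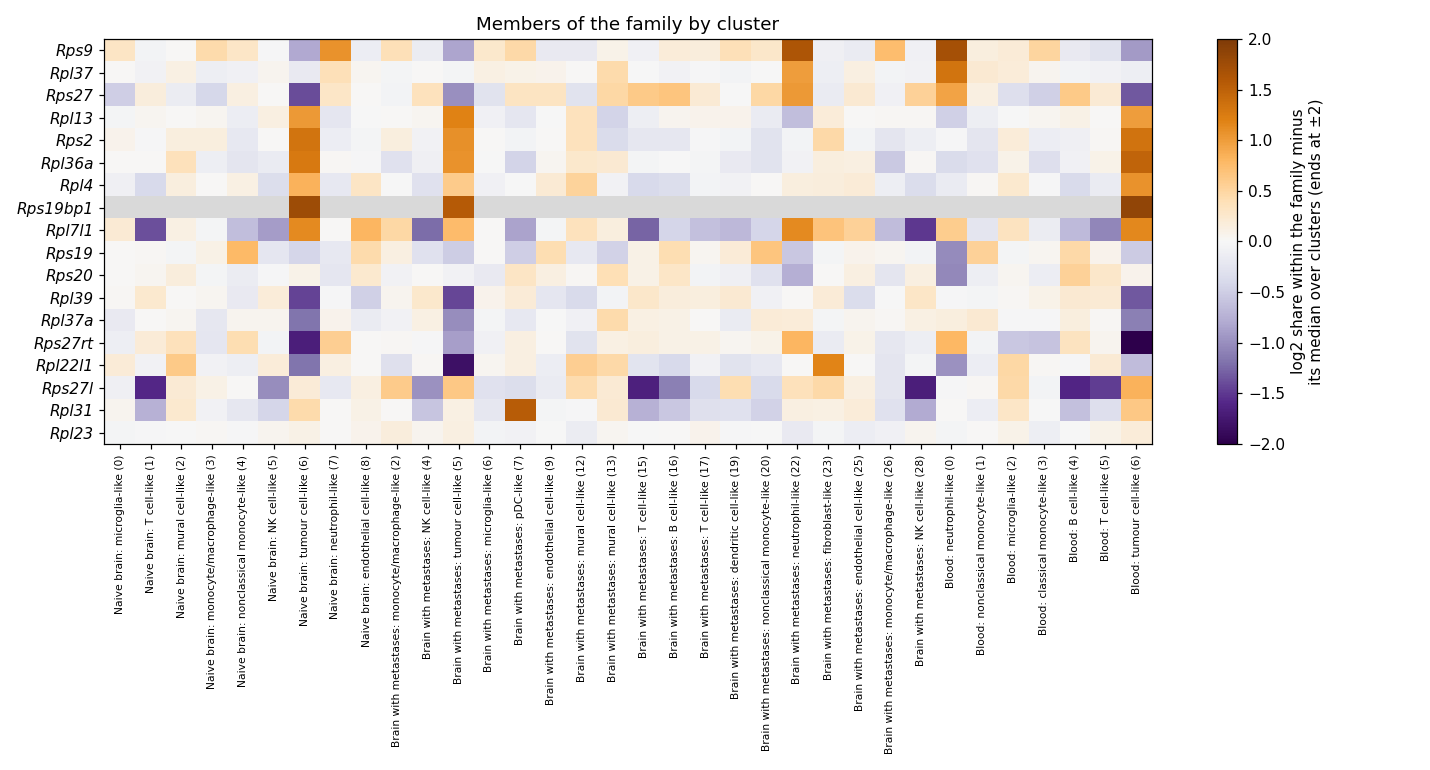
Members (rows) by named cluster (columns, matrix and cluster number), coloured by the log2 share within the family minus its median over the clusters of that matrix. Colours end at 2 and -2. Grey marks members whose level in the cluster and median level over clusters were both under 0.5 CP10k, so some coloured values are under that limit. Rps9 stands out in neutrophil-like cells of each matrix, a block of members in tumour-like cells, and Rpl23 hardly varies.

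Between the labels, the family's share was higher in the depleted-label sample in 9 of 9 clusters of the naive brain and 8 of 8 clusters of the blood. The log2 ratios (depleted over control label) ran from 0.040 to 0.89 in the naive brain and from 0.011 to 0.63 in the blood. The 0.63 belongs to an unnamed cluster of 12 and 7 cells in the depleted- and control-label samples, and the next highest blood cluster was at 0.17. By surface gate, over gates with at least 10 cells per label, it was higher in 8 of 8 gates of the naive brain and 7 of 8 of the blood. The exception was CD4+ cells of the blood, with 19.4% in the depleted-label sample and 22.8% in the control-label sample. With 1 sample per label there is no replicate error, and a difference between mice, hashtags or handling cannot be told apart from one between labels. Over whole samples the share was 20.4% and 15.6% in the naive brain samples labelled depleted and control, and 19.7% and 17.6% at a common cluster makeup. In the blood it was 16.4% and 14.7%, and 15.7% and 14.4% at a common makeup.

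**Figure D3:**
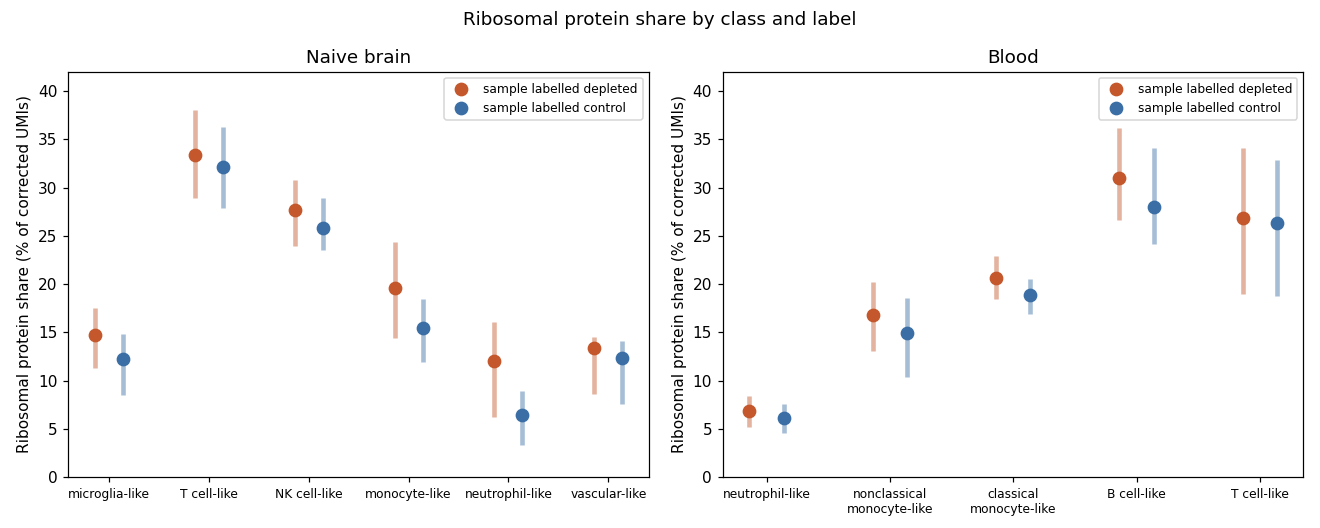
Ribosomal protein share (y axis, percent of corrected UMIs) by class (x axis) in the samples labelled depleted (orange, left of each pair) and control (blue); points are shares of summed UMIs and bars the quartiles over cells. The depleted label is higher in each pair, and the ranges between quartiles overlap in each pair.

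Neutrophil-like cells of the naive brain had the widest gap, 12.02% in the depleted-label sample (56 cells) and 6.48% in the control-label sample (49 cells), a log2 ratio of 0.89. There 80 of 81 measured members were higher in the depleted-label sample, where 60.0% of all 2708 measured genes were. Members past 2-fold higher numbered 22, where 6.02% of all measured genes were. The median member stood at 0.86 and the median of all measured genes at 0.11. Rps15a of the small subunit was at 21.4 and 7.997 CP10k, a log2 ratio of 1.41, and Rpl12 of the large subunit at 16.9 and 6.50 CP10k, a ratio of 1.37, in the depleted- and control-label samples. Rps27l, at 1.22 and 1.25 CP10k, and Rps9, with a log2 ratio of 0.38, stood furthest below the family with Rps27a (0.34), which encodes a ubiquitin fusion.

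Markers of other cells moved with this gap, and their part in it was not tested. The 9 neutrophil markers summed to 1471 CP10k in the depleted-label sample and 2216 CP10k in the control-label sample, lower for all 9. The 11 T cell markers summed to 11.2 and 1.88 CP10k, higher for 10 of the 11. Of these droplets, 67.9% and 63.3% were shared with another matrix. Among the 18 and 18 cells left without shared droplets, the log2 ratio of the share was 0.64 and 4 members passed 2-fold. By the Ly6C+Ly6G+ gate the ratio was 0.59.

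Monocyte-like cells of the naive brain had 19.6% in the depleted-label sample (172 cells) and 15.4% in the control-label sample (111 cells), a log2 ratio of 0.34. Of 82 measured members 81 were higher, where 42.6% of all measured genes were, and the medians were 0.33 and -0.05 for members and all genes. Rps21 and Rpl21 stood highest above the family, with log2 ratios of 0.47 and 0.46, and Rps27l lowest with -0.05. All 16 translation factors were higher as well, with a median of 0.25, while 23 of 38 mitochondrial ribosomal protein genes were, with a median of 0.05. The 9 neutrophil markers summed to 24.3 and 68.6 CP10k in the depleted- and control-label samples, lower for all 9, and their part was not tested.

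Microglia-like cells of the naive brain had 14.8% in the depleted-label sample and 12.2% in the control-label sample, a log2 ratio of 0.27. Members higher numbered 81 of 82, where 39.7% of all measured genes were, and the medians were 0.26 and -0.05. Rpl35 of the large subunit, at 9.68 and 6.82 CP10k in the depleted- and control-label samples, had the highest ratio (0.50). Rpl13a followed with 0.49, at 2.36 and 1.65 CP10k. Rps27l, Rpl7l1 and Rpl36al, all paralogs, had the 3 lowest, from -0.05 to 0.02. Of 16 translation factors 14 were higher (median 0.19), and of 10 measured ribosome biogenesis genes 2 were (median -0.06). The 9 neutrophil markers summed to 52.9 and 70.5 CP10k and the 5 red cell markers to 31.8 and 0.407 CP10k in the depleted- and control-label samples; their part was not tested.

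NK cell-like cells of the naive brain had 27.6% and 25.8% in the depleted- and control-label samples, a log2 ratio of 0.10, with 71 of 82 members higher, where 48.1% of all measured genes were. By surface gate that ratio was 0.052. T cell-like cells had 33.4% and 32.2%, a ratio of 0.053, with 60 of 81 members higher, where 48.2% of all were. That ratio was 0.087 without shared droplets and 0.18 by surface gates.

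Vascular-like cells of the naive brain had 13.4% and 12.3% in the depleted- and control-label samples, a log2 ratio of 0.12, with 76 of 82 members higher, where 48.5% of all measured genes were. Rps27rt led the family there, at 0.887 and 0.629 CP10k. Mitochondrially encoded genes took 14.8% and 10.2% of corrected UMIs, and without them in the total the ratio was 0.19. The median cell had 1985.5 and 5601 raw UMIs. The 5 red cell markers summed to 33.6 and 12.1 CP10k and the 8 endothelial markers to 34.2 and 51.5 CP10k, with 13 of 298 and 31 of 225 cells in the endothelial-like cluster. The part of these in the result was not tested.

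In the blood, neutrophil-like cells had 6.89% in the depleted-label sample (429 cells) and 6.12% in the control-label sample (537 cells), a log2 ratio of 0.17. Of 81 members 78 were higher, where 55.7% of all measured genes were, with medians of 0.19 and 0.03. Rps20 led with a ratio of 0.50. By the Ly6C+Ly6G+ gate the ratio of the share was 0.11.

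B cell-like cells of the blood had 31.0% and 28.0% in the depleted- and control-label samples, a log2 ratio of 0.15, with 76 of 82 members higher, where 55.3% of all measured genes were. Rpl7l1 stood lowest there, at 0.584 and 0.876 CP10k. The ratio was 0.049 without cells far from the class depth and 0.010 by the B220+ gate, which held 22.9% and 22.8%. Mitochondrially encoded genes took 4.86% and 6.39%, and the 9 neutrophil markers summed to 29.0 and 14.1 CP10k; their part was not tested.

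Nonclassical monocyte-like cells of the blood had 16.8% and 14.9% in the depleted- and control-label samples, a log2 ratio of 0.16, with 78 of 82 members higher, where 57.2% of all measured genes were. The ratio was 0.085 without shared droplets, 0.067 by the Ly6C-low gate and -0.025, the opposite direction, by that gate of an earlier annotation table. The 9 neutrophil markers summed to 36.1 and 108.8 CP10k, lower for all 9, and the 5 red cell markers to 0.436 and 69.7 CP10k. Mitochondrially encoded genes took 7.23% and 10.4%. The part of these in the result was not tested.

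Classical monocyte-like cells of the blood had 20.7% in the depleted-label sample and 18.9% in the control-label sample, with 81 of 82 members higher, where 40.9% of all measured genes were. The medians were 0.12 for members and -0.06 for all genes. Rpl22l1 stood highest above the family (4.66 and 3.66 CP10k in the depleted- and control-label samples) and Rps2 lowest (18.0 and 18.3 CP10k). The log2 ratio of the share was 0.13, and 0.057 by the Ly6C-high gate.

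T cell-like cells of the blood had 26.9% and 26.3% in the depleted- and control-label samples, a log2 ratio of 0.031, with 59 of 82 members higher, where 51.2% of all measured genes were. The median over cells had the opposite direction, 24.3% and 26.9%. The ratio was 0.011 without mitochondrially encoded genes, 0.14 without shared droplets and 0.13 by surface gates. In those gates 50.7% (CD4+), 65.0% (CD8+) and 64.6% (other CD3+) of the droplets were shared with another matrix.

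In none of the 11 comparisons did a measured member stand over 1 from the family's median log2 ratio, and members past 2-fold higher were found only in neutrophil-like cells of the naive brain. Of all measured genes, the share past 2-fold higher was 0.284% in microglia-like, 0.462% in T cell-like, 1.45% in NK cell-like, 0.451% in monocyte-like and 0.875% in vascular-like cells of the naive brain. In the blood it was 0.0864% in neutrophil-like, 0.99% in nonclassical and 0.42% in classical monocyte-like, 0.745% in B cell-like and 1.11% in T cell-like cells.

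**Figure D4:**
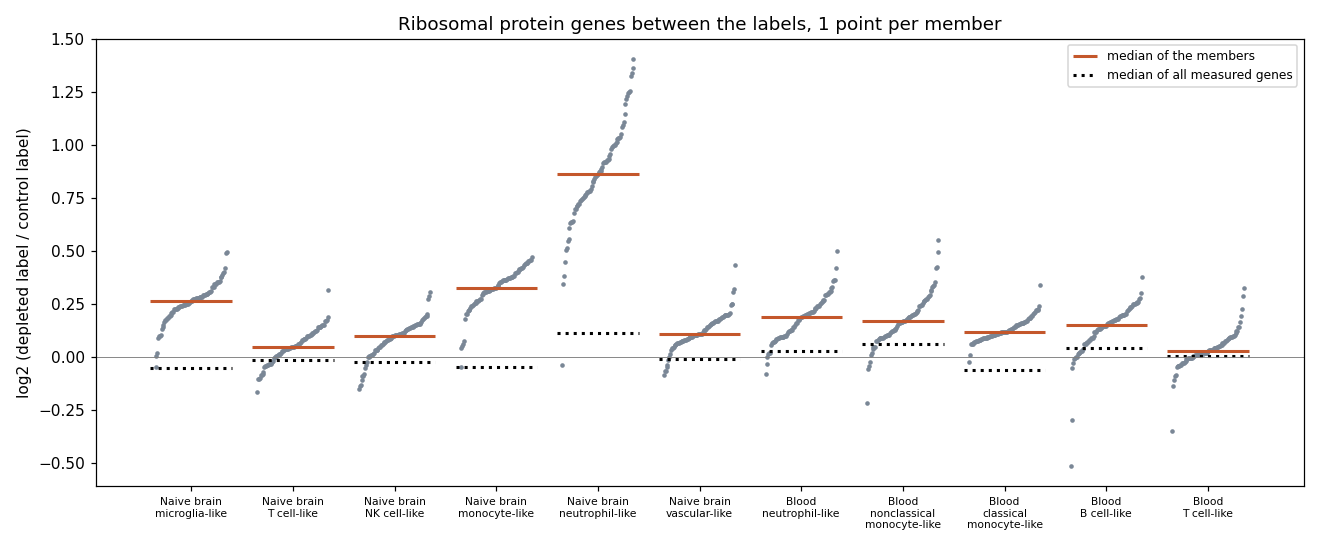
Log2 ratio of each measured member between the depleted- and control-label samples (y axis) in 11 classes (x axis), 1 grey point per member in order of its ratio. Orange lines are the medians of the members and dotted lines those of all measured genes; the members lie above all genes most widely in neutrophil-like cells of the naive brain, at 0.86 against 0.11.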

How the data were processed

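Each droplet of a pooled, hashed CITE-seq run (RNA, surface antibody tags and sample hashtags read from the same cells) gave 1 column of values. Per the submitters' processing notes, Cell Ranger 3.1, Seurat 3.1.1 and the mm10 build were used. As deposited, matrix values are the natural log of 1 plus a depth-corrected UMI count (unique molecular identifier, 1 per captured RNA molecule), as their values show, and were corrected tissue by tissue; undoing the log gave whole numbers. The deposited annotation tables give raw UMI counts per cell. They also give, as the authors' scores, corrected totals and hashtag totals per cell, and a mitochondrial percent that the authors' tables list at 0 in every cell, which was not used. The tables of annotations hold 59 columns that were not used.

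The family's share is its summed corrected UMIs over all corrected UMIs of a group of cells. Levels are corrected UMIs per 10000 (CP10k), and log2 ratios add 0.1 CP10k. Genes at 0.5 CP10k or above in at least 1 of both groups were taken as measured. Clusters of naive brain and blood are the authors'. The metastatic brain came without an annotation used here and was clustered (scanpy 1.11.5, with igraph 0.11.9) on 2000 variable genes (without ribosomal protein genes, 30 components, 20 neighbours, Leiden resolution 1). Clusters were named "X-like" from at least 3 markers, with a marker among the 10 leading genes. That naming rule was settled after the clusters were seen. No doublet caller was run. Each label and tissue is 1 hashed sample, so there is no replicate error, no test and no p-value; quartiles are over cells. The share and ratio code was tested on simulated data. Members and gene lists were chosen with earlier results of these data known. Named members are, per comparison, the 5 highest and 5 lowest relative to the family median, the most and least variable, the 10 most abundant and the paralogs; members of 1 cluster described as departing were chosen after their values were seen. Alternatives covered shared droplets, cell weighting, the total used, paralogs, depth, surface gates, pseudocount, filter and clustering.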

Additional observations from a re-analysis of the deposited data

How the results depend on the processing

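Each label and tissue is 1 hashed sample, so no spread between mice stands beside any difference, and leaving out a replicate was not possible. No paired analysis was possible because the labels give no replicate numbers shared between the samples. The ratio from each alternative setting was set against a 95% binomial interval around the main ratio of the same comparison. That interval covers counting error only and treats corrected values as counts. It was not used to weigh a difference between labels. Under weighting every cell equally, leaving mitochondrially encoded genes out of the total, leaving out the paralogs, leaving out cells far from their class in depth, and leaving out droplets listed in more than 1 matrix, the family's share was higher in the depleted-label sample in 11 of 11 comparisons each. By surface gates it was higher in 10 of 10, and by the gates of the earlier blood annotation in 4 of 5.

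The following log2 ratios (depleted over control label) lay outside that interval around their main ratio, and the cause was not tested. They moved from the main value, which does not make them differences between labels beyond counting error. Weighting every cell equally gave 0.26 in microglia-like and 0.090 in vascular-like cells of the naive brain. Leaving out mitochondrially encoded genes gave 0.047 in T cell-like and 0.19 in vascular-like cells of the naive brain, and 0.12 in B cell-like, 0.011 in T cell-like and 0.11 in nonclassical monocyte-like cells of the blood. Leaving out cells far from the class depth gave 0.049 in B cell-like and 0.15 in neutrophil-like cells of the blood. Leaving out shared droplets gave, in the naive brain, 0.30 in microglia-like, 0.087 in T cell-like, 0.50 in monocyte-like, 0.64 in neutrophil-like and 0.079 in vascular-like cells. In the blood it gave 0.11 in B cell-like, 0.14 in T cell-like, 0.13 in neutrophil-like and 0.085 in nonclassical monocyte-like cells. Surface gates gave, in the naive brain, 0.052 for NK cells, 0.18 for T cells, 0.26 for CNS-native myeloid cells, 0.38 for Ly6C-high cells and 0.59 for Ly6C+Ly6G+ cells. In the blood they gave 0.010 for B220+ cells, 0.13 for T cells, 0.057 for Ly6C-high, 0.067 for Ly6C-low and 0.11 for Ly6C+Ly6G+ cells. The earlier annotation gave 0.010, 0.13, 0.045 and 0.12 for the B220+, T, Ly6C-high and Ly6C+Ly6G+ gates, and -0.025, the opposite direction, for the Ly6C-low gate.

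The log2 ratio of the share in T cell-like over neutrophil-like cells was 2.44 in the naive brain, 2.14 in the metastatic brain and 2.23 in the blood without shared droplets. Surface gates gave 1.49 in the naive brain and 1.38 for the blood. In the blood it was 2.01 with every cell weighted equally and 2.10 without mitochondrially encoded genes. In the metastatic brain it was 1.97 and 1.75 at Leiden resolutions 0.5 and 2, and 1.53 with ribosomal protein genes kept for clustering. The main clusters there had 29.0% in T cell-like and 7.69% in neutrophil-like cells. With ribosomal protein genes kept, only 1 member stood among the variable genes, so that setting cannot show the family's part in the clustering. The cells named also changed: a cluster of 99 cells led by Stfa1, Stfa2 and Saa3 then counted as neutrophil-like.

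Summed over the 11 comparisons, members past 2-fold numbered 22, against 14 with a pseudocount of 1 and 4 without shared droplets. Members departing from the family numbered 0, against 2 with no filter on low values (Rpl39l in NK cell-like and Rpl3l in neutrophil-like cells) and 1 without shared droplets (Rps27rt in neutrophil-like cells, all of the naive brain). The departures listed next were rerun with alternatives chosen after seeing the data. By the Ly6C+Ly6G+ gate, Rps9 stood 0.59 above its median in the naive brain. Without shared droplets Rpl7l1 stood 0.90 above it in tumour-like cells of the naive brain, and Rpl37a and Rps27 stood at -0.99 and -1.03 in those of the metastatic brain.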
